A study of Homo sapiens with 6 samples.

Results

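Aldo-keto reductases (AKR) are cytosolic enzymes that use NADPH to reduce ketones and aldehydes to alcohols. The AKR1C enzymes act on ketosteroids and prostaglandins and so set how much active hormone a cell holds. AKR1B10 reduces retinal and other aldehydes, AKR1D1 reduces the steroid ring in bile acid synthesis, AKR1E2 reduces anhydrofructose, and the AKR7A enzymes reduce aldehydes such as those formed from aflatoxin. The 9 genes AKR1C1, AKR1C2, AKR1C3, AKR1C4, AKR1B10, AKR1D1, AKR1E2, AKR7A2 and AKR7A3 were chosen by name, out of 57885 genes counted in the series. All 9 were in the count files, and 6 passed the filter on low counts that left 26060 genes for testing.

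RNA was sequenced from HEK293, a human embryonic kidney cell line, in 3 WT libraries and 3 libraries labelled MUL1(−/−). MUL1 is a mitochondrial E3 ubiquitin ligase, and the MUL1(−/−) line was derived from the same HEK293 cells with CRISPR-Cas9. Both lines were grown in the same serum-supplemented medium without further treatment. Whether the 3 MUL1(−/−) libraries came from 1 edited clone, and whether the 3 libraries of a genotype came from separate cultures, is not given in the sources used here, so that p-values measure only the spread between these samples, which may be technical.

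The files held read counts per exon bin, a bin being a stretch of exon cut at each annotated boundary. A read was counted in every bin that it touched, and the count of a gene was the sum over its bins. Summed over all bins, the libraries held 127466071 to 149317215 counts. Levels are given as CPM, counts scaled to the size of each library, in which 1 count was worth 0.00648 to 0.00745 CPM. A change was called where the adjusted p of edgeR's quasi-likelihood test was under 0.05 and the log2 fold change was above 1 in either direction. By this rule 7.91% of all tested genes were called, 4.17% as higher in MUL1(−/−) and 3.75% as lower. The targeted gene did not check the labels, since MUL1 stood at 13.9 to 17.4 CPM in WT and at 15.2 to 17.7 CPM in the libraries labelled MUL1(−/−), and genotypes below are those of the labels.

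AKR1C1, AKR1C2, AKR1C3 and AKR1C4 lie side by side on chromosome 10 and differ at few bases. Their coding sequences, each 969 bases long, were compared in the GENCODE 29 transcripts. AKR1C1 and AKR1C2 differed at 19 bases and were 98.0% identical. AKR1C3 was 91.4% identical to AKR1C1, and AKR1C4 88.5%. The fifth exon, 123 bases of coding sequence in each gene, shows how closely the 4 genes match. Reads lying wholly within it can be told apart only by the 9 positions at which the genes are not all alike. These positions are in capitals in the sequences below, which come from GENCODE 29 transcripts (GRCh38), written 5′ to 3′ in the direction of the gene.
AKR1C1 exon 5 (chr10:4968822-4968944, plus strand): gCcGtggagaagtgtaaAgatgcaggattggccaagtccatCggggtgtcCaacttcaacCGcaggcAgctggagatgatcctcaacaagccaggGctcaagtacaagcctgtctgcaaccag
AKR1C2 exon 5 (chr10:4998625-4998747, minus strand): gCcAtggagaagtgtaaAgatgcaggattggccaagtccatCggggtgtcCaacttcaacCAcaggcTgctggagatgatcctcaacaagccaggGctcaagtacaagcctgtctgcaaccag
AKR1C3 exon 5 (chr10:5099327-5099449, plus strand): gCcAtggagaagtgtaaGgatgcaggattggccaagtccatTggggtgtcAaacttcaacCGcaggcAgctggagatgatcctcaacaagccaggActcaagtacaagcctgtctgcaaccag
AKR1C4 exon 5 (chr10:5206275-5206397, plus strand): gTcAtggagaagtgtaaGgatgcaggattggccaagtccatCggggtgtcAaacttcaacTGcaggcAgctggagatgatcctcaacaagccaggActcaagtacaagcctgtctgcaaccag
In this exon AKR1C1 differed from AKR1C2 at 3 bases, from AKR1C3 at 5 and from AKR1C4 at 6.

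AKR1C1, AKR1C2 and AKR1C3 rose in MUL1(−/−), from nearly no reads to low levels. AKR1C2, which inactivates dihydrotestosterone, changed by the largest factor of the 6 tested genes and reached the largest CPM of the AKR1C genes. AKR1C4, whose enzyme is best known from liver, stayed at or near 0 in all 6 libraries. AKR7A3 fell, and AKR7A2, the member with the most reads, was not called.

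AKR1C1 (ENSG00000187134, chr10:4963253-4983283, plus strand) encodes an enzyme that inactivates progesterone. Its level was 0.171, 0.253 and 0.0652 CPM in WT and 1.78, 2.01 and 1.95 CPM in MUL1(−/−). All 3 MUL1(−/−) libraries lay far above the WT libraries and close to each other. The means were 0.163 ± 0.094 CPM and 1.91 ± 0.12 CPM (SD, n = 3 each). The genotypes differed by 3.53 ± 0.28 on the log2 scale (SE, adjusted p = 5.13e-07), or 11.5-fold.

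AKR1C2 (ENSG00000151632, chr10:4987400-5018031, minus strand) had 0.135, 0.0648 and 0.0579 CPM in WT and 1.82, 2.27 and 3.37 CPM in MUL1(−/−). The genotypes did not overlap, which was also so for 49% of all tested genes, and the third MUL1(−/−) library stood above the other two. The log2 fold change was 4.85 ± 0.31 (SE, adjusted p = 6e-08), or 28.8-fold.

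AKR1C3 (ENSG00000196139, chr10:5035354-5107686, plus strand) encodes an enzyme that makes testosterone from androstenedione and reduces prostaglandins. It had 0.207, 0.0389 and 0.145 CPM in WT and 1.12, 1.26 and 1.54 CPM in MUL1(−/−), without overlap. On the log2 scale it was 3.34 ± 0.34 higher in MUL1(−/−) (SE, adjusted p = 4.32e-06), or 10.2-fold. The files list all of its bins under an identifier that joins it with a second gene, ENSG00000237831, which is not in GENCODE 29.

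The levels behind these folds were low. The highest count in any bin was taken for each library separately. In the WT libraries it was 3, 6 and 2 reads for AKR1C1, 3, 3 and 2 for AKR1C2 and 5, 1 and 5 for AKR1C3. In MUL1(−/−) it was 30 to 35 reads for AKR1C1, 39 to 80 for AKR1C2 and 18 to 24 for AKR1C3. The WT level, and with it the size of each fold, therefore rested on single reads, and the 3 genes passed the filter through their MUL1(−/−) libraries alone. The alternatives left out 1 library, changed the scaling, filter or test, or took 1 bin per gene, the one with the most counts over all libraries. They left the log2 fold change between 3.15 and 3.99 for AKR1C1, between 4.56 and 5.44 for AKR1C2 and between 2.87 and 3.85 for AKR1C3.

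**Figure D1:**
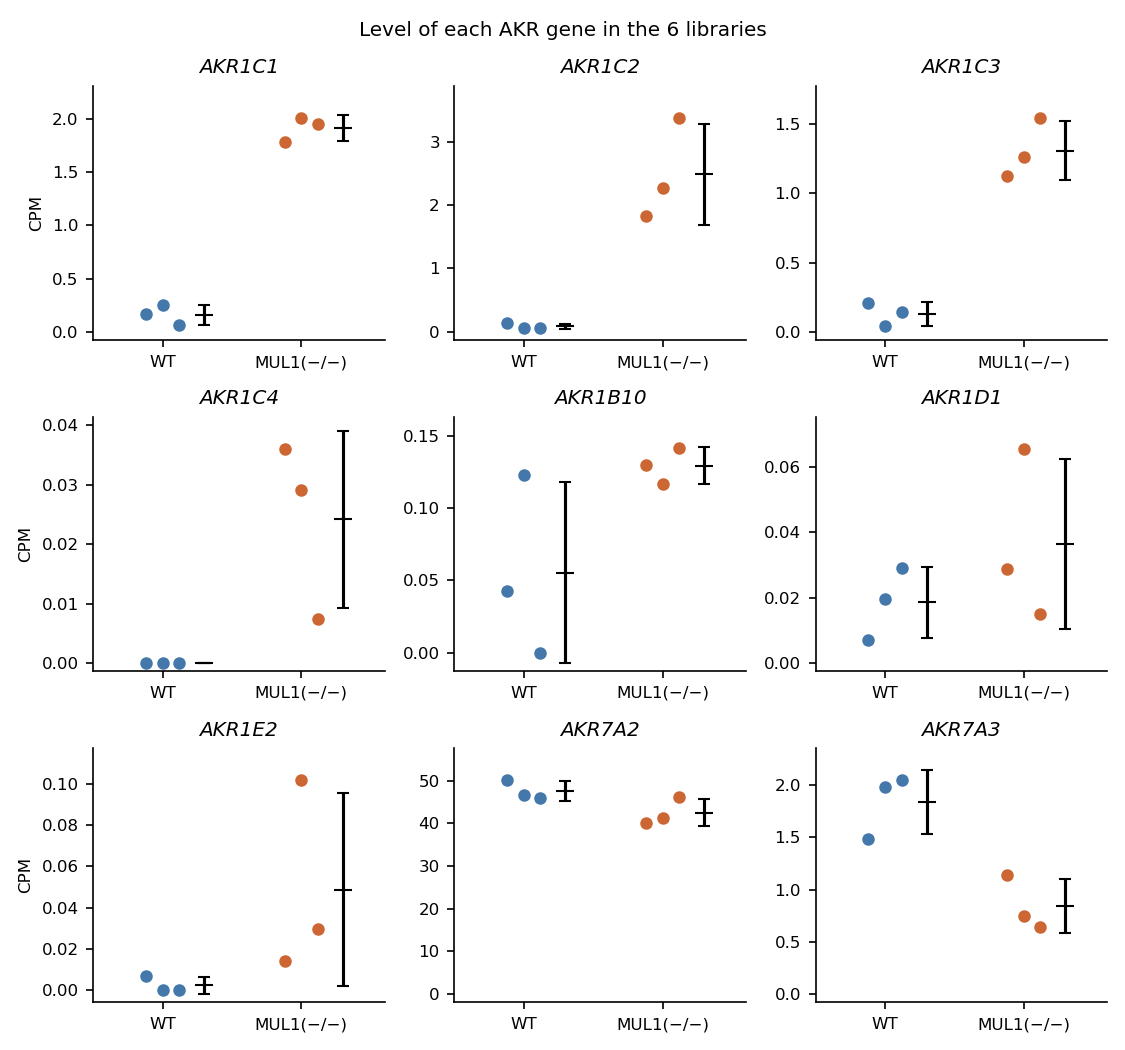
Level in CPM (vertical axis, a separate linear scale for each gene) of the 9 AKR genes in the 3 WT and 3 MUL1(−/−) libraries. Points are libraries and the bars beside them the mean ± SD. AKR1C1, AKR1C2 and AKR1C3 rise from below 0.3 CPM to above 1 CPM, AKR7A3 falls, and AKR1C4, AKR1D1 and AKR1E2 stay near or below the level of a few counts.

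The AKR1C genes were next followed exon by exon. In MUL1(−/−) reads lay in all 9 exons of AKR1C1, AKR1C2 and AKR1C3, so that the rise did not come from a single bin. For each exon the most counted bin was taken. AKR1C1 had 10 to 35 reads per exon in the MUL1(−/−) libraries and 0 to 6 in WT. AKR1C2 had 7 to 80 and 0 to 3, and AKR1C3 had 6 to 24 and 0 to 5. AKR1C2 had its highest counts in exon 2, with 39, 61 and 80 reads in MUL1(−/−) against 3, 0 and 1 in WT. Summed over the MUL1(−/−) libraries AKR1C1 was highest in exon 5, the exon printed above, with 27, 35 and 26 reads against 2, 3 and 1. Exon 7 was close, with 30, 32 and 23 reads in MUL1(−/−). The first MUL1(−/−) library was highest in exon 7 and the third in exon 2, with 31 reads. Exon 5 of AKR1C2 had 29, 31 and 55 reads against 1, 2 and 2, and the longer bin of exon 5 of AKR1C3 had 11, 13 and 18 against 1, 1 and 5. Of the same exon of AKR1C4, 1, 1 and 0 reads were counted in MUL1(−/−) and none in WT.

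Of the 97 bins of the 4 genes, 25 had enough counts to be tested, and all 25 were called higher in MUL1(−/−). Across all tested bins 2.48% were called in this direction. A bin of such low counts passed the filter only through the MUL1(−/−) libraries, so that its count of calls is no support beyond that of the genes. The 10 tested bins of AKR1C1 had log2 fold changes of 2.59 to 4.44, the 8 of AKR1C2 of 3.70 to 6.09 and the 7 of AKR1C3 of 2.59 to 5.37. No bin of AKR1C4 was tested.

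**Figure D2:**
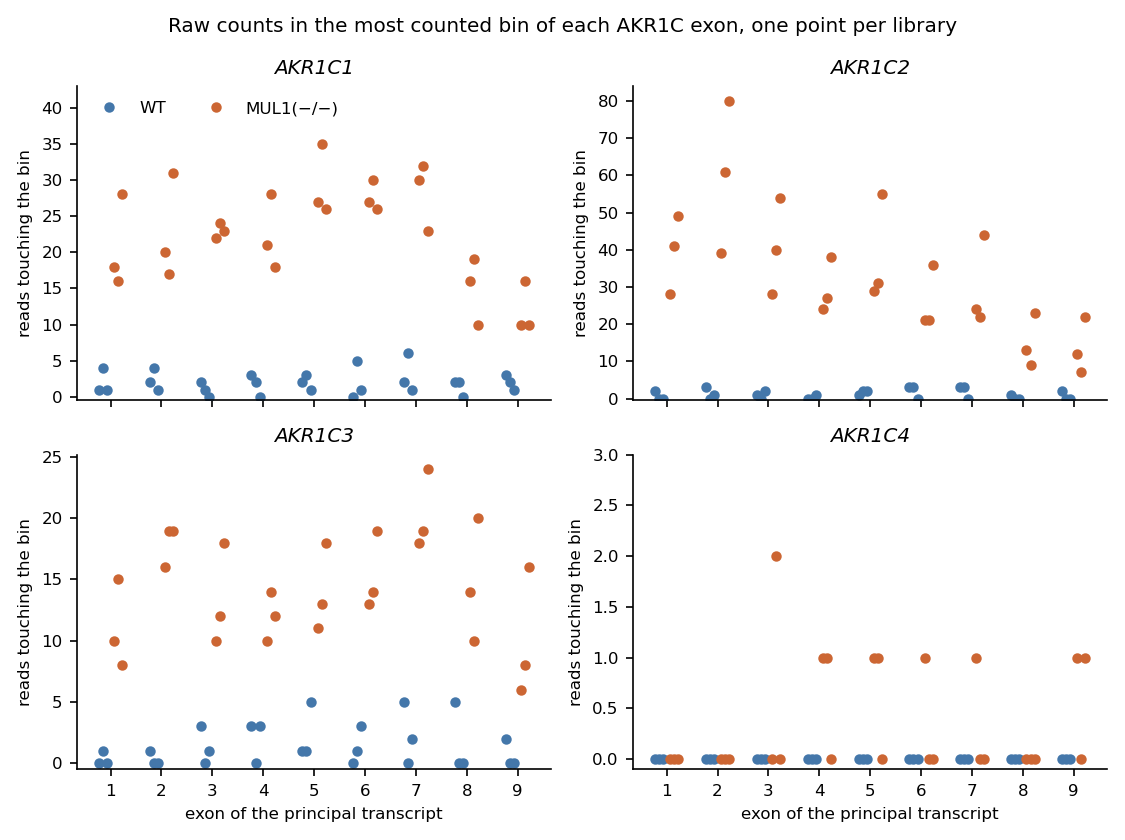
Reads touching the most counted bin (vertical axis, raw counts, a separate scale for each gene) of each of the 9 exons (horizontal axis) of AKR1C1 to AKR1C4, with 1 point per library. MUL1(−/−) points lie above WT points in every exon of AKR1C1, AKR1C2 and AKR1C3, and AKR1C4 has at most 2 reads in any exon.

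Because the genes are so alike, the share of each transcript that occurs in no other gene was measured with stretches of 75 bases. This share was 77.8% for AKR1C1, 58.7% for AKR1C2, 92.1% for AKR1C3 and 94.5% for AKR1C4. Of these transcripts, AKR1C1 and AKR1C2 had 1453 stretches in common. The share of AKR1C1 came mostly from an untranslated bin of 5333 of its 6705 bases, at 82.1%, which held 11, 9 and 12 reads in MUL1(−/−). Its coding exons 4 and 6, with more reads, had 58.2% and 48.3%. Exon 8 was the extreme case, with 1.1% of its stretches in AKR1C1 and 1% in AKR1C2 found in no other gene. It held 10 to 19 reads of AKR1C1 and 9 to 23 of AKR1C2 in MUL1(−/−). How reads that match several genes were counted is not given in the sources used here. When only bins with at least 50% of their stretches in no other gene were summed, AKR1C1 had 16, 25 and 6 counts in WT and 171, 182 and 188 in MUL1(−/−). AKR1C2 had 11, 5 and 7 against 182, 256 and 329, and AKR1C3 had 24, 6 and 18 against 138, 154 and 183. The 3 genes thus did not overlap between genotypes in these bins either.

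The make-up of the summed AKR1C1 to AKR1C3 counts differed between genotypes for AKR1C2 more than for the other two, but no share could be called. AKR1C2 made up 26.4%, 18.2% and 21.6% of the counts in WT and 38.6%, 41.0% and 49.1% in MUL1(−/−). The difference of 20.8 percentage points had p = 0.1 in an exact two-sided permutation test, the smallest value that 3 against 3 libraries allow. The share of AKR1C3 was 35.1% ± 22.0 in WT and 23.0% ± 0.691 in MUL1(−/−) (SD, n = 3 each). It differed by -12.1 percentage points (exact permutation p = 0.4), and that of AKR1C1 by -8.73 percentage points (exact permutation p = 0.9). With 3 genes tested, no adjusted value can fall below these. In WT the share of AKR1C3 ranged from 10.9% to 54.1%.

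The bins also show which starts carried reads. Annotated first exons far upstream of AKR1C2 (12 bins, chr10:5005995-5018031) and of AKR1C3 (10 bins, chr10:5035354-5081885) held 0 counts in all 6 libraries. A count of 0 allows up to 3 counts per library, or 0.0194 to 0.0224 CPM. The near first exon held the reads instead. Its most counted bin had 28, 41 and 49 reads of AKR1C2 in MUL1(−/−) against 2, 0 and 0 in WT, and 10, 15 and 8 of AKR1C3 against 0, 1 and 0. Bins outside the principal transcript held 12 of the 857 counts of AKR1C1, 8 of 1054 of AKR1C2 and 1 of 591 of AKR1C3.

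The 250 bases before each RefSeq start (GRCh38.p14) were compared because AKR1C1, AKR1C2 and AKR1C3 moved together. These windows are not free of the counted exons, since the bins begin further upstream. The window of AKR1C1 (chr10:4963165-4963414) shared 162 bases with exon bins, that of AKR1C2 (chr10:5003858-5004107) 166 bases, and those of AKR1C3 (chr10:5094164-5094413) and AKR1C4 (chr10:5196587-5196836) all 250. The bin over the AKR1C3 window held 7, 3 and 3 reads in MUL1(−/−) and 0, 1 and 0 in WT. From each window 30 bases are shown 5′ to 3′ on the strand of the gene, chosen around a CCAAT box, which is in capitals and is read here from the opposite strand as ATTGG. For AKR1C4, which has none, the 30 bases most like those of AKR1C3 are shown.
AKR1C1 (chr10:4963326-4963355, plus strand): ctctcacatgccATTGGttaaccagcagac
AKR1C2 (chr10:5003921-5003950, minus strand): ctctcacatgccATTGGttaaccagcagac
AKR1C3 near start (chr10:5094316-5094345, plus strand): ctcctacatgccATTGGttaaccatcagtc
AKR1C3 far start (chr10:5048696-5048725, plus strand): cttttacatgctATTGGttaaccattaggc
AKR1C4 (chr10:5196736-5196765, plus strand): ctcctacatgccattgattagccccaggga
The windows of AKR1C1 and AKR1C2 were 99.6% identical, with 1 base differing over 246 aligned bases. The window at the near start of AKR1C3 was 78.6% identical to that of AKR1C1, and the window of AKR1C4 67.1%. The letters CCAAT were found, over both strands, in the windows of AKR1C1, AKR1C2 and AKR1C3 and not in that of AKR1C4. The window at the far start of AKR1C3, where no read was counted, held them too, so that the letters did not follow the starts with reads. The windows of AKR1E2, a gene of the same cluster with few reads, held CCAAT at 3 positions. The letters CCAAT occur in 32.0% of 35116 RefSeq windows of this length. The core of the antioxidant response element, searched as TGACNNNGC, was in none of these AKR1C windows and in 10.9% of all. The AP-1 letters TGANTCA were also in none of them and in 6.6% of all. The TATA box letters TATAA, searched over both strands, were in every AKR1C window, that of AKR1C4 included, and in 18.9% of all. In the windows of AKR1C1 and AKR1C2 they lay only on the strand opposite to the gene. These searches describe 250 bases only.

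The other genes of the set were low or changed little. AKR1C4 (ENSG00000198610, chr10:5195462-5218949) had 0 counts in each WT library and 5, 4 and 1 counts in MUL1(−/−), with at most 2 reads in a bin. AKR1E2 (ENSG00000165568, chr10:4786629-4848062) had 1, 0 and 0 counts against 2, 14 and 4, with 1 read at most in any bin. AKR1D1 (ENSG00000122787, chr7:138002324-138117986) had 1, 3 and 4 counts against 4, 9 and 2, and its genotypes overlapped. These 3 genes did not pass the filter and no fold is given. In a fit without the filter AKR1E2 (adjusted p = 0.00366) and AKR1C4 (adjusted p = 0.0229) passed the threshold and AKR1D1 (adjusted p = 0.472) did not, at levels where 1 read can decide a count.

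AKR1B10 (ENSG00000198074, chr7:134527592-134541408) had 0.0428, 0.123 and 0 CPM in WT and 0.13, 0.116 and 0.142 CPM in MUL1(−/−). The second WT library lay among the MUL1(−/−) libraries, and the log2 fold change of 1.17 ± 0.63 (SE, adjusted p = 0.163) was not called. Without the second WT library it was 2.52 (adjusted p = 0.0157), and with limma-voom 2.21 (adjusted p = 0.0449). No bin held more than 4 reads.

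AKR7A2 and AKR7A3 lie next to each other on chromosome 1 and are 91.5% identical in coding sequence. AKR7A2 (ENSG00000053371, chr1:19303965-19312146, minus strand), which reduces succinic semialdehyde, had 50.1, 46.6 and 45.8 CPM in WT and 40.1, 41.3 and 46.2 CPM in MUL1(−/−). The third MUL1(−/−) library lay within the WT range, and the log2 fold change of -0.16 ± 0.08 (SE, adjusted p = 0.116) was not called. AKR7A3 (ENSG00000162482, chr1:19282558-19289250, minus strand) had 1.49, 1.98 and 2.05 CPM against 1.14, 0.75 and 0.641 CPM. All MUL1(−/−) libraries lay below WT. The log2 fold change was -1.12 ± 0.21 (SE, adjusted p = 0.000653), or 2.18-fold lower in MUL1(−/−). Without the third MUL1(−/−) library it was -0.96 (adjusted p = 0.00109), inside the fold threshold, so that this call rested on that library. Of the 75-base stretches of AKR7A3, 84.1% were in no other gene, and 260 were shared with AKR7L, another AKR7 gene of the same locus.

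Levels per length were set side by side within each genotype. The level was taken as CPM per kilobase over the coding bins of the principal transcript. Since 1 read can add to several bins, a gene cut into more bins gains level. AKR1C3 had 11 coding bins and AKR1C2 had 8 over the same 845 bases, and AKR7A3 had 5 over 620 bases, which limits the order given here. In WT, AKR7A2 stood at 38.3 ± 1.87 and AKR7A3 at 1.77 ± 0.368 CPM per kilobase (SD, n = 3). AKR1C3 (0.135 ± 0.0991), AKR1C1 (0.131 ± 0.0925), AKR1C2 (0.0821 ± 0.0253) and AKR1B10 (0.0657 ± 0.0742) followed and overlapped each other. In MUL1(−/−) AKR7A2 was still first at 34.6 ± 2.71 CPM per kilobase. AKR1C2 came next at 2.29 ± 0.797 and overlapped AKR1C1 at 1.76 ± 0.0954. AKR1C3 followed at 1.21 ± 0.231, below every AKR1C1 library, and overlapped AKR7A3 at 0.845 ± 0.38. AKR1C4 had 0.0221 ± 0.0191.

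The remaining genes of the superfamily gave no call. Of 11 listed, 7 were tested, and 0 passed both thresholds in edgeR or in DESeq2. In the edgeR fit 5 had an unadjusted p under 0.05 and 4 an adjusted p under 0.05, which 37.8% of all tested genes had. AKR1A1 and AKR1B1, the general aldehyde and aldose reductases, had the most reads. AKR1A1 went from 121 ± 3.42 to 126 ± 10.7 CPM and AKR1B1 from 244 ± 7.99 to 220 ± 11.7 CPM (SD, n = 3). Their log2 fold changes were 0.05 ± 0.07 (SE, adjusted p = 0.607) and -0.15 ± 0.06 (SE, adjusted p = 0.0859). AKR7L had -0.62 ± 0.19 (SE, adjusted p = 0.0163), and the potassium channel subunits KCNAB1, KCNAB2 and KCNAB3, which share the AKR fold, had 0.79, -0.55 and 0.86. Without the third WT library 1 gene of this list, KCNAB3, was called. The pseudogenes AKR1C6P and AKR1C7P of the AKR1C cluster held no more than 4 counts in any library.

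The surroundings of the genes differed between the AKR1C cluster and the AKR7A pair. Within 1 Mb of the AKR1C cluster and AKR1E2, 16 other genes were tested and 0 were called by edgeR, a count near the 7.91% of all genes. DESeq2 called 0 as well. In the edgeR fit 8 had an unadjusted p under 0.05 and 5 an adjusted p under 0.05, near the 37.8% of all tested genes. Their median log2 fold change was -0.17, with a range of -1.05 to 0.47, and that of all tested genes was 0.00. No tested gene lay between the cluster members or in the 1 Mb before them. The nearest, 193602 bases beyond AKR1C4, was NET1, at 86 ± 3.72 CPM in WT and 78.6 ± 2.63 CPM in MUL1(−/−) (log2 fold change -0.13 ± 0.07, adjusted p = 0.141). Genes of few reads did not pass the filter, and 2 of them, named after their values were seen, had reads in MUL1(−/−) alone. TUBAL3, a tubulin gene 174149 bases beyond AKR1C4 and so nearer than NET1, had 0 counts in each WT library and 19, 5 and 10 in MUL1(−/−). In fits that left out any WT library or the second MUL1(−/−) library it passed the filter and was called higher (adjusted p = 0.000925 to 0.00389), as it was without the filter (adjusted p = 3.15e-06). ENSG00000224251, an antisense gene within AKR1C2, had 0, 0 and 0 counts against 2, 3 and 3. It was called only without the filter (adjusted p = 0.0458), and reads of a gene and its antisense partner can be told apart only where strand is counted. ENSG00000213994 was called lower without the third WT library (log2 fold change -1.39, adjusted p = 0.0213).

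Around the AKR7A pair 21 of 22 tested neighbours had a log2 fold change below 0, against 50.1% of all tested genes. So did 13 of the 16 near the AKR1C cluster and all 10 near AKR1D1, at medians of -0.17 and -0.16. The neighbours of the AKR7A pair differed in size of change, with a median of -0.54. Of these 22 genes, 19 had an adjusted p under 0.05, against 37.8% of all tested genes. The nearest on either side were AKR7L and SLC66A1, a lysosomal amino acid transporter, at -0.37 ± 0.09 (SE, adjusted p = 0.00545). Called lower were IGSF21 (-4.24), RNU6-1099P, a small RNA pseudogene within AKR7A2 (-1.44), and TMCO4, which went from 4.57 ± 0.443 to 2.28 ± 0.249 CPM (SD, n = 3). TMCO4 lay so near the fold threshold that it was not called without the third WT or without the first or second MUL1(−/−) library. PLA2G2F, too low for the filter, was called higher in the fit without it (adjusted p = 0.0177). MUL1 itself lies 1.19 Mb from AKR7A2 on the same chromosome.

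Around AKR1B10, 15 other genes were tested within 1 Mb and 0 were called by edgeR or DESeq2, with 5 at an unadjusted p under 0.05. Their median log2 fold change was -0.15. Around AKR1D1, 1 of 10 was called, the transporter gene SVOPL, which had 42, 44 and 51 counts in WT and 3, 14 and 5 in MUL1(−/−), or -2.55 ± 0.42 on the log2 scale (SE, adjusted p = 0.000275). The median of these 10 genes was -0.16.

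The stretch of lower values was wider than the region first examined, as windows of 2 Mb chosen after these values were seen showed. From 20 Mb before the pair to 10 Mb beyond it, the median log2 fold change of every window lay between -0.74 and -0.41. From 10 to 14 Mb beyond, the medians were -0.13 and -0.05, and from 14 to 20 Mb they were 0.05, 0.12 and 0.07. AKR7A2, at -0.16, stood above the medians of its surroundings, and AKR7A3, at -1.12, stood below them. Of the genes in the lists of this report, AKR7L (-0.62), KCNAB2 (-0.55), PRXL2B (-1.62), PGD (-0.90) and DHRS3 (-0.19) lay in the same stretch. MUL1, also within it, had 0.14 ± 0.10 (SE, adjusted p = 0.302). Over all 2568 other tested genes of chromosome 1 the median was -0.04. DNA copy number was not measured here, and the part of this stretch in the values of AKR7A2, AKR7A3 and AKR7L was not tested.

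**Figure D3:**
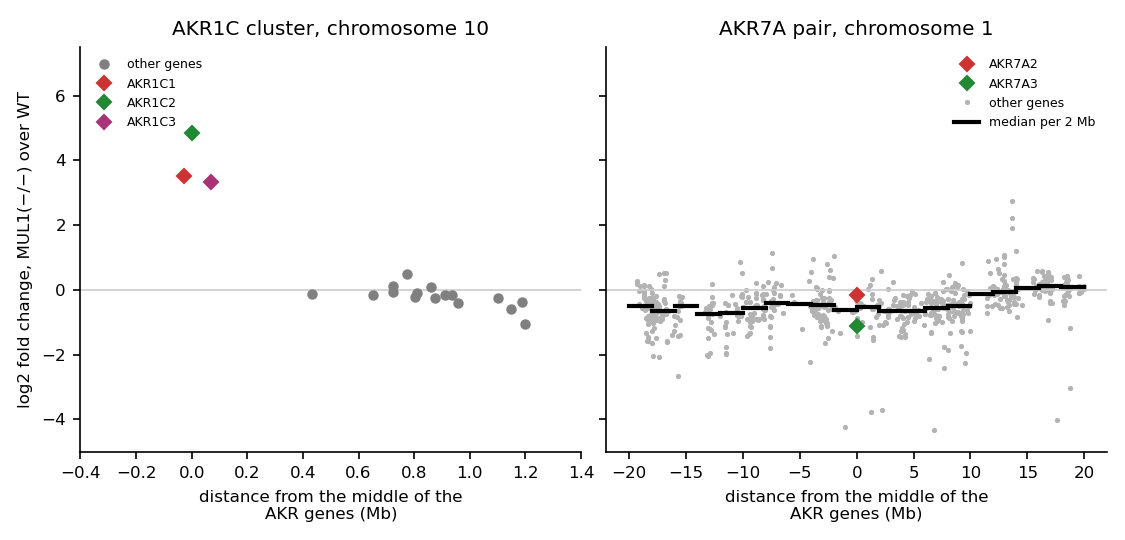
Log2 fold change, MUL1(−/−) over WT (vertical axis), against distance from the middle of the AKR genes in Mb (horizontal axis), within about 1 Mb of the AKR1C cluster on chromosome 10 (left) and within 20 Mb of the AKR7A pair on chromosome 1 (right). Diamonds are AKR genes, dots other tested genes and bars medians of 2 Mb windows. AKR1C1, AKR1C2 and AKR1C3 stand above the other tested genes of the left panel, and around the AKR7A pair the window medians lie near -0.5 until 10 Mb beyond it and near 0 after that.

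Enzymes that share substrates with the AKR1C genes were counted from fixed lists. For comparison, 7.91% of all tested genes were called and 37.8% had an adjusted p under 0.05. Of 37 steroid enzymes, 23 were tested, of which 2 rose and 1 fell. On adjusted p alone 12 of the 23 passed. STAR, which carries cholesterol into mitochondria, had 16, 24 and 22 counts in WT and 58, 47 and 43 in MUL1(−/−), a rise of 1.33 ± 0.28 on the log2 scale (SE, adjusted p = 0.00165). DHRS9, a retinol and steroid dehydrogenase, rose by 1.70 ± 0.40 (SE, adjusted p = 0.00413). STS, the steroid sulfatase that frees steroids from their sulfates, had 293, 353 and 311 counts in WT and 1, 1 and 1 in MUL1(−/−). The summed level was 302-fold lower in MUL1(−/−), with a 95% interval of 103 to 1469 if each count were a separate read. Since 1 read can add to several bins, this interval is too narrow even for counting error alone. The median log2 fold change of the list was -0.01. With the most counted bin of each gene in place of the sum, STAR and DHRS9 had too few reads to be tested. Without the third MUL1(−/−) library HSD17B3 and HSD11B1 were called too, for a count of 5.

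Of 8 steroid receptor genes, all tested, 1 rose and 1 fell, and the median log2 fold change was 0.19. On adjusted p alone 2 of the 8 passed. PGR, the progesterone receptor, rose from 0.14 ± 0.0356 to 0.38 ± 0.166 CPM (SD, n = 3, adjusted p = 0.00469).

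Of 26 prostaglandin genes 23 were tested, and 3 rose and 3 fell, with a median of -0.12. On adjusted p alone 12 of the 23 passed. PTGFR, the receptor of prostaglandin F, had 6, 13 and 8 counts in WT and 180, 212 and 101 in MUL1(−/−), a rise of 4.25 ± 0.34 (SE, log2, adjusted p = 4.77e-07). PTGS2, the inducible cyclooxygenase, rose by 1.48 ± 0.19 and the receptor PTGER3 by 1.16 ± 0.33. PTGER3 was not called without the first WT or the second MUL1(−/−) library. PRXL2B, which reduces prostaglandin H to prostaglandin F, went from 36.9 ± 1.37 to 12 ± 0.728 CPM, and so changed by -1.62 ± 0.08 on the log2 scale (SE, adjusted p = 3.37e-09). The prostacyclin synthase PTGIS (-3.35) and the prostaglandin transporter SLCO2A1 (-1.69) fell as well.

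Of 11 bile acid synthesis genes 8 were tested, and 4 of these passed on adjusted p alone. BAAT, which joins bile acids to amino acids, was the one called, at 1.04 ± 0.32 (SE, log2, adjusted p = 0.0207), and the median of the list was 0.31. DESeq2 did not call it, and neither did edgeR without the first or second WT or the first or second MUL1(−/−) library.

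Among 24 carbonyl enzymes, all tested, 3 rose and 1 fell, and the median was 0.21. On adjusted p alone 17 of the 24 passed. ALDH1A1, which oxidizes retinal, rose by 3.67 ± 0.27 (SE, log2, adjusted p = 2.14e-07). DHRS2, a dicarbonyl reductase, rose by 2.78 ± 0.22, and ALDH3A1, an aldehyde dehydrogenase, by 1.52 ± 0.29. DCXR, the xylulose reductase, changed by -1.20 ± 0.08 on the log2 scale (SE, adjusted p = 1.19e-07), from 614 ± 75.6 to 267 ± 10.3 CPM.

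AKR1C genes are textbook targets of NRF2, the transcription factor of the oxidative stress response. Of 31 NRF2 regulators and targets, all tested, 1 was called, the transporter ABCC3 at 1.25 ± 0.36 (SE, log2, adjusted p = 0.0135), and DESeq2 called 0. Without the second MUL1(−/−) library ABCC3 was not called, and the list's only call was then OSGIN1, an NRF2 target, as lower (log2 fold change -1.02, adjusted p = 0.0225). The median log2 fold change of the list was 0.06. Whether NRF2 bore on the AKR1C genes was not tested. On adjusted p alone 15 of the 31 passed, where 37.8% of all tested genes did. Among them, named after their values were seen, NQO1 had 0.61 ± 0.14 (SE, adjusted p = 0.00336), HMOX1 0.70 ± 0.16 (SE, adjusted p = 0.00266) and KEAP1, the inhibitor of NRF2, 0.82 ± 0.10 (SE, adjusted p = 3.2e-05). OSGIN1, also among them, went the other way at -0.77 ± 0.28 (SE, adjusted p = 0.0438). The whole list ranged from -0.90, the value of PGD, to 1.25. NFE2L2, which encodes NRF2, had 0.10 ± 0.07 (SE, adjusted p = 0.295).

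**Figure D4:**
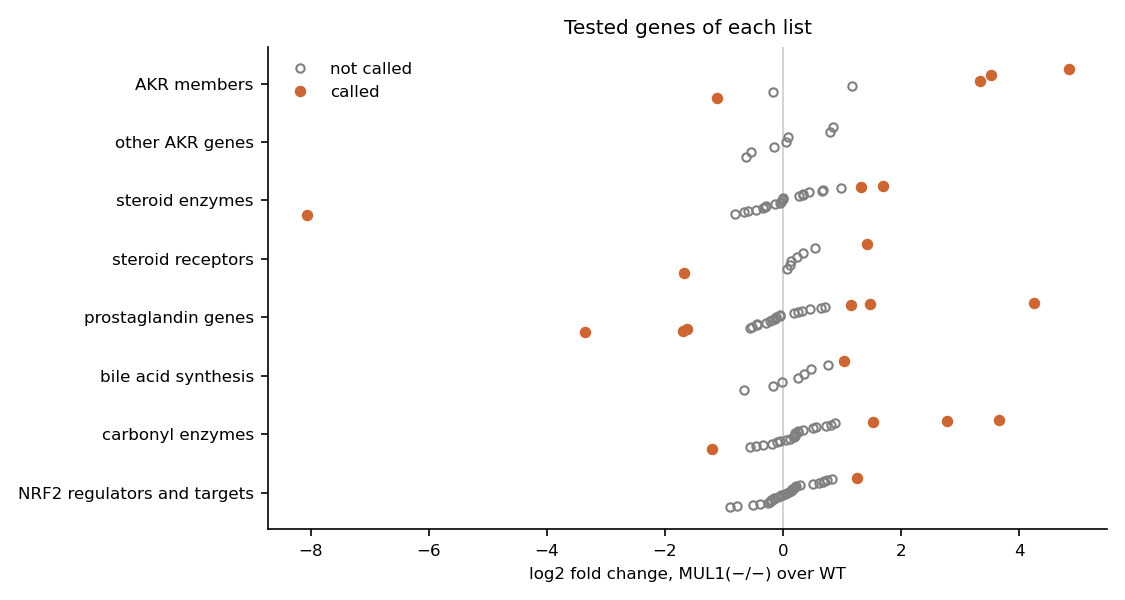
Log2 fold change, MUL1(−/−) over WT (horizontal axis), of each tested gene in 8 lists (vertical axis, genes of a list spread for legibility). Filled points passed both thresholds and open points did not. AKR1C1 to AKR1C3 stand at 3.34 to 4.85, above all but PTGFR and ALDH1A1 of the other lists, and STS stands at -8.07.

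Profiles were compared over the 6 libraries to find the genes most like AKR1C1. Among 18352 genes of at least 0.5 CPM on average, the closest were B3GALT1, a galactosyltransferase, COL9A1, a cartilage collagen, ALDH1A1, TSTD1 and AC010487.3. Their root mean square differences from AKR1C1, in log2 CPM centred on the WT mean, were 0.19, 0.33, 0.42, 0.46 and 0.47. AKR1C2 and AKR1C3 differed from AKR1C1 by 0.94 and 1.02 on the same measure, which at these counts holds the scatter of the WT libraries. B3GALT1 had 0.0855, 0.136 and 0.0362 CPM in WT and 1.28, 1.4 and 1.23 CPM in MUL1(−/−).

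Markers of cell types in which AKR genes are abundant, and of others, were counted in the same way. The share called among all tested genes was 7.91%. All libraries came from 1 cultured line, HEK293, so these are RNA levels of that line and not of a mix of tissues. A change in some of its cells and a change in all of them cannot be told apart in such libraries. Of 9 hepatocyte markers 4 were tested and 0 were called by edgeR or DESeq2, with 1 at an unadjusted p under 0.05. Their summed level was 0.628 to 0.941 CPM in WT and 1.13 to 1.30 CPM in MUL1(−/−). Of 7 steroidogenic cell markers 4 were tested and STAR was called. Of 8 kidney epithelial markers 7 were tested, and PAX2 fell from 8.62 ± 1.32 to 2.49 ± 0.647 CPM (SD, n = 3). The summed level of the kidney list was 428 to 469 CPM in WT and 289 to 316 CPM in MUL1(−/−). Of 7 fibroblast markers, all tested, COL3A1, DCN and LUM rose and THY1 fell, although DESeq2, the replicate block and the removal of the second WT or the second or the third MUL1(−/−) library each ended the call of THY1. For this list the summed level was 25.8 to 35.1 CPM against 36.0 to 51.0 CPM. Of 7 neuronal markers 6 were tested, and NEFM and SYT1 rose. The median log2 fold change of the neuronal list was -0.08. Its summed level was 125 to 162 CPM in WT and 118 to 152 CPM in MUL1(−/−). The part of these shifts in the levels of the AKR genes was not tested.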

How the data were processed

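RNA-seq libraries of HEK293 WT and MUL1(−/−) cells (3 each) were analysed. The authors trimmed reads with Trimmomatic 0.36, aligned them to GRCh38 with STAR 2.5.2b (per the submitters' processing notes) and deposited raw counts per exon bin for each library. The counting tool and its treatment of reads matching several genes are not given in the sources used here. The files held 597973 bins. Bins were summed per gene, and bins under identifiers that join genes, with 21.0% of the counts, were given to each gene with a GENCODE 29 exon there. Symbols came from GENCODE 29 and the reference gene table.

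Genes were tested with edgeR 4.0.16 (filterByExpr, TMM, quasi-likelihood F test, Benjamini-Hochberg) in R 4.3.3, over all 26060 genes or 330941 bins passing the filter. A call needed a log2 fold change beyond 1 in either direction together with an adjusted p below 0.05. SE is the log2 fold change divided by the root of F. The study's own comparison used DESeq2, run here as an alternative (1.42.0), with limma-voom 3.58.1, other scalings and filters, the most counted bin, and each library left out. On simulated counts edgeR recovered 99 of 100 genes changed by a log2 of 2. The simulation gave every gene the same small fixed spread between replicates. It therefore does not measure how many changes would be found in these libraries or at low counts. Shares were compared by exact two-sided permutation. CPM depth per library is in the report, and intervals and floors (3 counts) cover counting error only. All members were named, and the genes past both thresholds in each list and near the AKR genes, apart from 1 listed gene whose result is not reported here. The members, lists and tests were chosen with earlier results of these data known. Replicate noise was above sampling noise in every pair of libraries of a genotype.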

Additional observations from a re-analysis of the deposited data

How the results depend on the processing

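The 4 calls among the AKR genes (3 higher, 1 lower) stayed within 3 to 6 over all alternatives, with 5 under limma-voom, 6 without the filter, 3 without joined bins and 3 to 5 with 1 library left out. Among the other lists and the bins, counts changed by more than 1.5 times as follows. Leaving out 1 library at a time gave 0 to 1 other AKR genes (reported 0), 3 to 5 steroid enzymes (reported 3) and 0 to 1 bile acid genes (reported 1). Summing only the most counted bin of each gene gave 1 steroid enzyme, 0 NRF2 genes and 2 genes near the AKR genes (4 in the report, all lower). DESeq2 gave 0 bile acid and 0 NRF2 genes (reported 1 each). The causes were not tested. A floor of 1 CPM in 3 libraries left no AKR1C bin to test, and without joined bins AKR1C3 has no value. The difference in the share of AKR1C3 kept its direction, from -24.2 to -2.60 percentage points with 1 library left out. Whether replicate numbers pair the samples could not be settled. The correlations of the deviations of libraries with the same number were -0.10, 0.17 and 0.11, against a mean of -0.03 for other numbers. Across both genotypes, 4 libraries were closest to the one with their own number. The fit with the replicate block gave 4 calls among the AKR genes and 25 AKR1C bins; of the genes called, it ended 1 call, that of the marker THY1. The exchange within replicate numbers gave an exact permutation p of 0.5 for the share of AKR1C3. The depth limits AKR1C4, AKR1D1, AKR1E2 and AKR1B10, each under 5 reads in every bin.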
